A study of Homo sapiens with 9 samples.

Results

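The 35 genes described here encode the actin filament and the proteins that bundle, stabilise, pull on or take apart it: actins, α-actinins, filamins, transgelins, calponins, caldesmon, tropomyosins, myosin II chains and the myosin light chain kinase, and the factors of filament turnover. They were given as a list of symbols and not picked by a rule on measured values. Earlier results of these data were known when the genes were chosen. Of the 35 genes, 29 had a probe set (the group of oligonucleotides that reads 1 transcript) assigned to that gene alone, against 11963 genes in the whole table. A gene was tested where its brightest such probe set reached a log2 value of 4 on at least 3 of the 9 arrays. 25 of the 35 genes and 4368 of the 11963 genes met this. ACTA2, ACTG2, CNN1 and TPM2 did not and are given by their values alone. ACTG1 was read only by probe sets shared with ACTB, and TPM3, FLNA, FLNC, CFL2 and CAP1 were not analysed here because the probe annotation used names no probe set for them alone.

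The cells were HK-2, an established, immortalised human proximal tubule line. The untreated group was harvested at 0 h, and the other groups had received transforming growth factor β1 (TGFb1 in the labels) for 24 h or 48 h. Each group has 3 arrays, 1 from each of 3 runs of the experiment on different days at successive passages, with 3 plates pooled per time and run. All groups share a culture medium that contains EGF, hydrocortisone, triiodothyronine and insulin, transferrin and selenium. The replicates are therefore runs of 1 cell line and their spread is a spread between runs. The design text calls the controls vehicle while the sample labels call them untreated, which is the name used here. Because untreated cells were analysed at 0 h alone, TGFb1 and time in culture cannot be told apart. The TGFb1 dose is not given in the labels. RNA of a whole culture was measured, in which fewer cells of a type and less RNA per cell cannot be told apart.

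Actin filaments become contractile when myosin II slides them past each other. Myosin is switched on by phosphorylation of its regulatory light chain, which MYLK carries out, and tropomyosin, caldesmon and calponin lie along the filament and set how myosin and severing proteins reach it. TGFb1 is known for driving fibroblasts and some epithelial cells towards a contractile state with stress fibres, in which smooth muscle proteins such as TAGLN appear. Many of these genes are controlled by serum response factor (SRF), which binds a DNA element called the CArG box and is switched on when monomeric actin releases its cofactors.

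Values are on the log2 scale as deposited. Array medians lay between 2.20 and 2.23 and the highest value of an array between 12.4 and 12.5, a range in which 28.2% to 29.3% of probe sets reached 4. Control probe sets for ACTB differed between their 3′ and 5′ parts by 1.02 to 1.15 in the untreated group, 0.89 to 1.03 at 24 h and 0.96 to 1.09 at 48 h. Of 9 proximal tubule markers on the array, only PAX8 passed the filter, and the other 8 did not exceed 2.28, so most of the markers that define the labelled cell type were at background. Of 6 epithelial markers, 4 passed the filter (KRT8, KRT18, KRT19 and EPCAM), while CDH1 and KRT7 did not exceed 1.42 and 2.80 on any array. Of 6 fibroblast markers, LUM alone passed (group means 6.48, 6.12 and 6.82 at 0, 24 and 48 h). Of 7 striated muscle markers, TNNT1 alone passed (7.36, 7.17 and 7.34). No endothelial or leukocyte marker did. PAX8 had group means of 7.37, 6.77 and 6.56 at 0, 24 and 48 h and EPCAM 8.36, 7.10 and 7.19. KRT8 went the other way, with 7.34, 7.98 and 7.79. KRT18 differed from untreated cells by 0.14 at 24 h and −0.28 at 48 h, and KRT19 by −0.19 and −0.29. The epithelial markers thus did not move in 1 direction. The part of these markers in the results below was not tested. Of 5 smooth muscle markers outside the 35 genes, only SMTN (smoothelin) passed. The remaining 4, MYH11, DES, LMOD1 and SYNM, stayed at or below 2.90 on every array. The log2 values of these 5 markers summed to 12.2 to 12.5 in the untreated group, 13.3 to 14.4 at 24 h and 12.9 to 13.4 at 48 h. SMTN itself had group means of 4.77, 5.67 and 5.30. The other 4 markers were too dim to be told from background, so the sum does not show that they rose.

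The promoters were searched for the CArG box, which is CC, then 6 bases that are each A or T, then GG. The RefSeq promoter table for GRCh38.p14 held 52 promoters for 30 of the 35 genes, and ACTB, TAGLN, MYL9, PFN2 and FSCN1 were not matched. In the 250 bases before the start, on either strand, a box was present for 7 of the 30 genes (23.3%), namely ACTG1, ACTG2, ACTN1, CNN2, FLNA, MYLK and TPM4. It was present for 394 of 27305 genes in the whole table (1.44%), or in 13.5% of the promoters of the 30 genes against 1.16% of all promoters. The MCAT element (CATTCC) was found for 9 of the 30 genes (30.0%, against 14.3% of all genes) and the short SMAD element (CAGAC) for 16 (53.3%, against 42.8%). None of the 48 matches overlapped a match to another of these motifs. A match describes letters in a window and not a bound site. All 4 tested genes with a box are shown from 200 to 61 bases before the start, 5′ to 3′ on the strand of the gene. The box is in capitals, and the expression changes of these genes are described below. ACTN1 is from chr14:68977627-68977766 on the minus strand and is 1 of its 4 promoters in the table. TPM4 is from chr19:16067338-16067477 on the plus strand and is 1 of its 3 promoters. CNN2 is from chr19:1026408-1026547 on the plus strand and MYLK from chr3:123620609-123620748 on the minus strand.
ACTN1: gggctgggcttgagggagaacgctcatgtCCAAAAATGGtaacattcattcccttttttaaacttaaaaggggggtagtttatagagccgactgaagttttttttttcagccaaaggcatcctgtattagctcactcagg
TPM4: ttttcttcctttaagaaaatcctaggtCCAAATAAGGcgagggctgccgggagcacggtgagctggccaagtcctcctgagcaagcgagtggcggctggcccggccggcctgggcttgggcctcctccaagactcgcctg
CNN2: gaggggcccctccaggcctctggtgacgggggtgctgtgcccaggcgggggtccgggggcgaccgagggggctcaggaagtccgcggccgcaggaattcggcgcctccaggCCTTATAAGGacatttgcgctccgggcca
MYLK: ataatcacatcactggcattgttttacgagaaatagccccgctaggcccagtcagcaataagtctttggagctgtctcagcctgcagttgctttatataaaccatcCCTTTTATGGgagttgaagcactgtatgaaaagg

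After 24 h of TGFb1, TAGLN, TAGLN2 and TPM4 rose, and none of the 25 tested genes fell past the threshold (limma, Benjamini-Hochberg adjusted p under 0.05 over 4368 genes). That is 3 of 25 tested genes higher, where 2.63% of all tested genes were, and 0 lower, where 2.17% were. After 48 h the same 3 genes and TPM1 were higher than in untreated cells, 4 of 25 against 2.27% of all genes, and 0 were lower against 2.17%. At an unadjusted limma p under 0.05, 11 of the 25 differed at 24 h (16.0% of all tested genes) and 9 at 48 h (13.9%). Of the 25, MYLK alone was lower by this rule at 24 h (7.53% of all tested genes) and 0 were lower at 48 h (6.57%). Arrays of 1 run shifted together, so the fit was repeated with the run number as a block, which compares arrays within a run. With the block, 7 genes were higher at 24 h (TAGLN, TAGLN2, TPM4, TPM1, MYL9, ACTN1 and MYH9), against 5.95% of all genes, and MYLK was lower, against 5.52%. At 48 h with the block, 8 were higher (TAGLN, TAGLN2, TPM4, TPM1, MYL9, ACTN1, CNN3 and CALD1), against 5.22% of all genes, and 0 lower, against 4.81%. The median log2 fold change of the 25 genes was 0.24 at 24 h and 0.23 at 48 h, and that of all tested genes was 0.01 and 0.02. Both comparisons use the same 3 untreated arrays, so their values are not independent of each other.

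**Figure D1:**
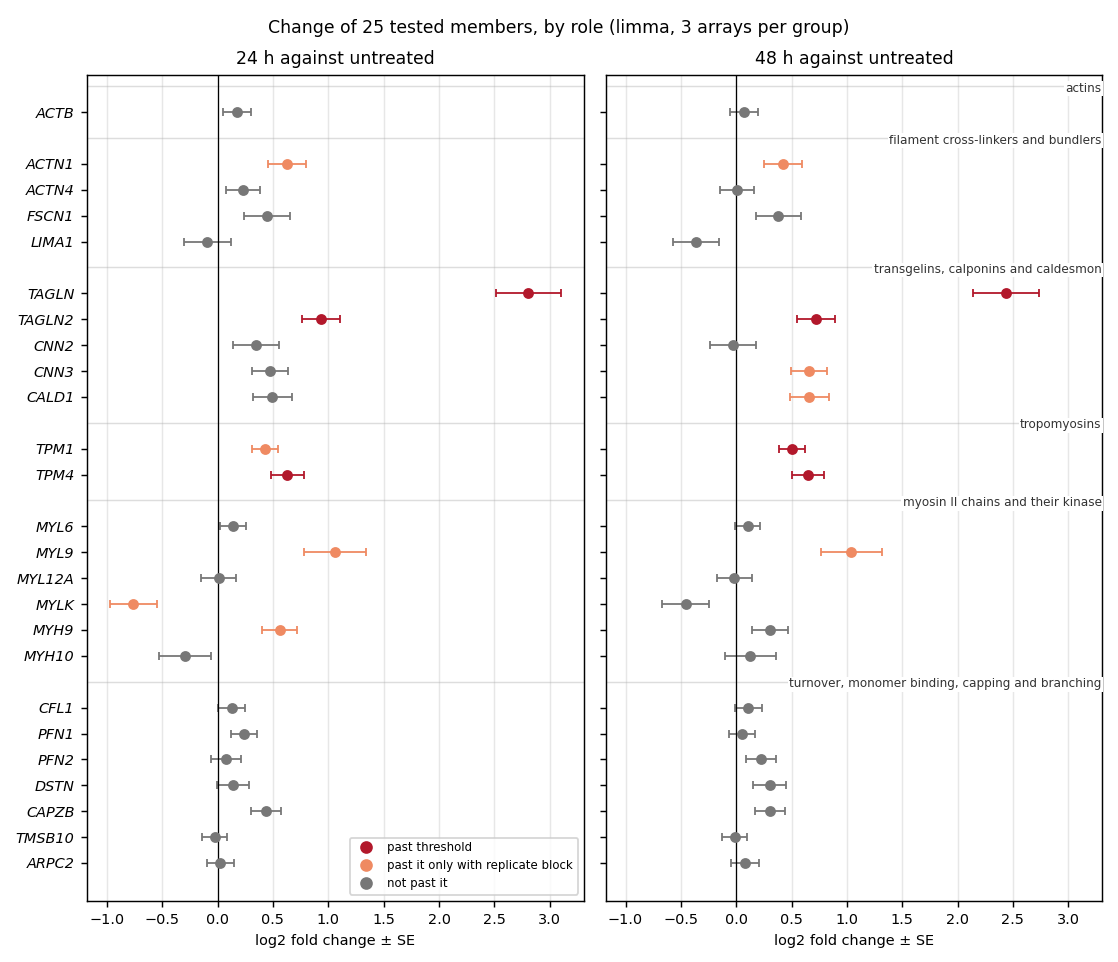
Log2 fold change of each of the 25 tested genes (horizontal axis, point) with its SE (bar) at 24 h (left) and 48 h (right) against untreated cells, 3 arrays per group, grouped by role. Dark red genes passed an adjusted p of 0.05 in limma, orange genes only with the run as a block, and grey genes neither. TAGLN stands far to the right of the others with 2.81 and 2.44.

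TAGLN (transgelin, also called SM22α) is an actin-binding protein of the calponin family that is abundant in smooth muscle. Its log2 values in runs 1, 2 and 3 were 5.27, 5.51 and 4.48 in untreated cells, 7.51, 7.79 and 8.38 at 24 h, and 7.27, 7.58 and 7.72 at 48 h. Every treated array lay above every untreated one, and the lowest untreated array and the highest 24 h array both came from run 3. The log2 fold change was 2.81 (SE 0.30) at 24 h, a 7.00-fold increase (limma adjusted p = 0.000734), and 2.44 at 48 h, 5.42-fold (limma adjusted p = 0.00166). Within the runs the 24 h difference was 2.24, 2.28 and 3.90. TAGLN ranked 4 among the 4368 genes by increase at 24 h and 11 at 48 h. Without run 1 its adjusted p at 48 h was 0.0559 (limma). Of the 5 smooth muscle markers on the same arrays, SMTN also rose at 24 h, by 0.90 (limma adjusted p = 0.0333), and differed by 0.53 at 48 h (0.246), while MYH11, DES, LMOD1 and SYNM were at or below 2.90 on every array. Its part in the TAGLN result was not tested.

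TAGLN2, the broadly expressed paralog of TAGLN, started from a far brighter signal. Its values were 8.86, 9.12 and 9.03 in untreated cells, 9.61, 9.99 and 10.22 at 24 h, and 9.60, 9.86 and 9.71 at 48 h, with no overlap between untreated and treated arrays. It rose by 0.93 (SE 0.17), 1.91-fold, at 24 h (limma adjusted p = 0.0149) and by 0.72 at 48 h (limma adjusted p = 0.0488). The second TAGLN2 probe set differed by 1.03 and 0.75. In a fit over all 6681 probe sets, added after seeing the data, this set had limma adjusted p of 0.00608 and 0.0283. The brightest set had 0.0164 and 0.0524 there, so its 48 h call was lost in that fit. The call at 24 h was lost without untreated replicate 1 (limma adjusted p = 0.0687), without 24 h replicate 2 (0.0530) or without 24 h replicate 3 (0.0546), on leaving out any whole run (0.0839, 0.0930 and 0.192), and with the 6 compared arrays fitted alone (0.0555). At 48 h the call was lost on leaving out any untreated or 48 h array, 24 h replicate 2, or any run, with adjusted p up to 0.259, and with no filter on dim genes (0.0659).

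CALD1 (caldesmon, which ties actin to myosin and tropomyosin) and CNN3 (the acidic calponin of non-muscle cells) had larger mean differences from untreated cells at 48 h. Neither differed past the threshold between 24 h and 48 h. That difference was 0.17 for CALD1 (95% interval −0.23 to 0.57, limma adjusted p = 0.818) and 0.18 for CNN3 (−0.19 to 0.55, 0.799). CALD1 had values of 7.19, 7.14 and 7.72 in untreated cells, 8.00, 7.67 and 7.87 at 24 h, and 7.91, 8.07 and 8.05 at 48 h. Its 24 h arrays overlapped the untreated ones and its 48 h arrays did not. CNN3 had 6.68, 6.39 and 7.00, then 7.16, 7.28 and 7.05, then 7.32, 7.34 and 7.37, with both treated groups above the untreated one. At 48 h their log2 fold changes were 0.66 (SE 0.18) and 0.66 (SE 0.16), with limma adjusted p of 0.0749 and 0.0558. With the block these were 0.0318 and 0.0346. At 24 h CALD1 differed by 0.49 (adjusted p = 0.200, and 0.0812 with the block, limma) and CNN3 by 0.48 (0.180 and 0.0936).

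CNN2, another calponin of non-muscle cells, had values of 6.39 to 6.69 in untreated cells, 6.46 to 7.15 at 24 h and 6.25 to 6.74 at 48 h, and the groups overlapped. Its log2 fold change was 0.35 at 24 h (limma adjusted p = 0.474) and −0.03 at 48 h (0.989). Its promoter carries the box shown above. CNN1, the calponin of differentiated smooth muscle, did not exceed 2.70 on any array. Over the 5 tested transgelins, calponins and caldesmon, the median log2 fold change was 0.49 at 24 h and 0.66 at 48 h.

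Tropomyosins are coiled-coil dimers that run along the filament and protect it. TPM4 had values of 7.66, 7.37 and 7.75 in untreated cells, 8.40, 8.16 and 8.10 at 24 h, and 8.16, 8.23 and 8.33 at 48 h, and every treated array was higher than every untreated one. It rose by 0.63 (SE 0.15), 1.55-fold, at 24 h (limma adjusted p = 0.0434) and by 0.65, 1.57-fold, at 48 h (0.0395). These calls stood close to the threshold. At 24 h the call was kept, among the 9 omissions of a single array, only without untreated replicate 3, and omission of the other 8 arrays gave limma adjusted p of up to 0.112. At 48 h it was kept only without 24 h replicate 1 or untreated replicate 3, and the other omissions gave up to 0.162. Leaving out any run, or fitting the 6 compared arrays alone (0.142 and 0.0655), ended the TPM4 call at both times, and having no filter ended it at 24 h (0.0560).

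TPM1 is the tropomyosin gene that makes, by alternative exons, muscle and non-muscle isoforms. Its brightest probe set had values of 10.44, 10.48 and 10.61 in untreated cells, 10.94, 11.00 and 10.87 at 24 h, and 10.96, 11.08 and 11.00 at 48 h. The groups did not overlap, and the untreated arrays lay within 0.2 of each other. The log2 fold change was 0.43 (SE 0.12) at 24 h (limma adjusted p = 0.0834, and 0.0362 with the block) and 0.51 at 48 h, 1.42-fold (0.0429). The 48 h call was kept, among omissions of a single array, only without untreated replicate 3, and the other 8 gave limma adjusted p of up to 0.160. The TPM1 call also ended on leaving out any run, under quantile normalization (0.0690) and with the 6 compared arrays fitted alone (0.0861).

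The 4 tested TPM1 probe sets gave unequal differences. In order of falling brightness their untreated means were 10.51, 10.39, 9.19 and 5.13, and their 24 h differences were 0.43, 0.52, 0.78 and 1.34. At 48 h these were 0.51, 0.61, 0.95 and 1.37. In a fit over all 6681 probe sets that met the filter, the set with a mean of 9.19 had a limma adjusted p of 0.00581 at 24 h and the dimmest set 0.00138, both past the threshold, while the 2 brightest had 0.0861 and 0.0705. This fit was added after seeing the data. Which TPM1 transcripts each set reads was not tested. The second TPM4 set differed by 0.91 at 24 h (limma adjusted p = 0.0153) and 0.82 at 48 h (0.0250), more than the brightest one. TPM2, the tropomyosin best known from muscle, did not exceed 1.96.

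**Figure D2:**
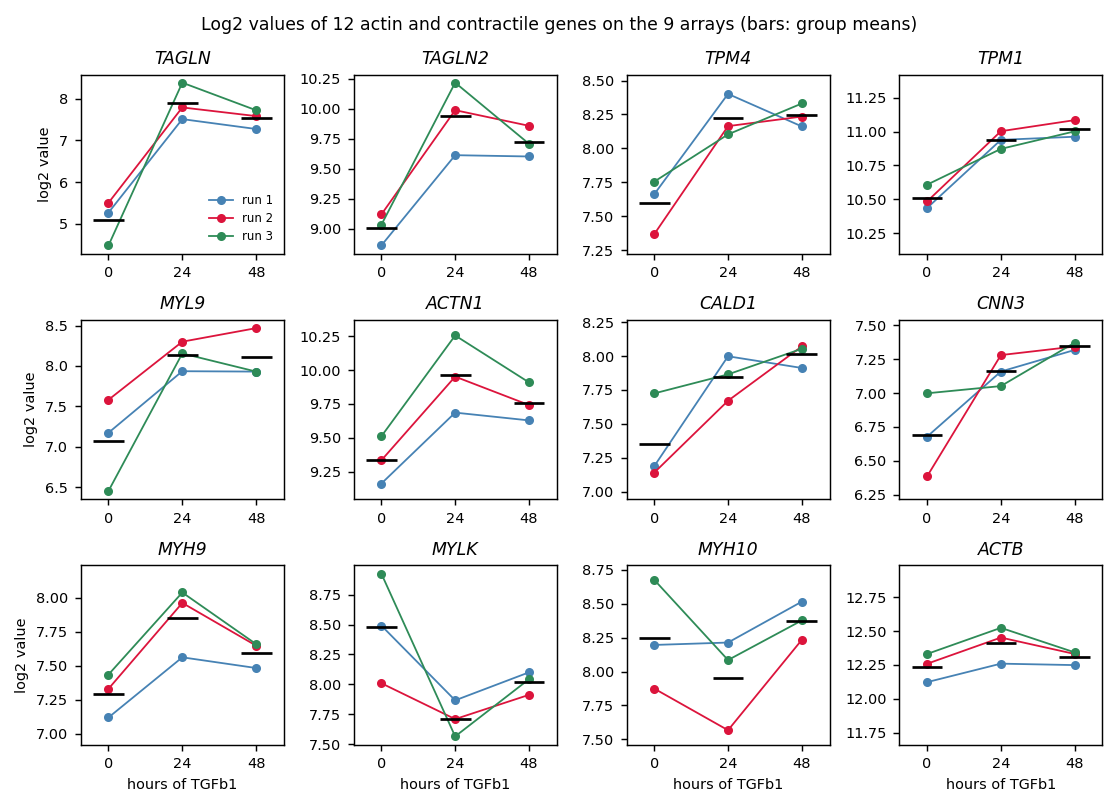
Log2 values (vertical axis, its own range in each panel) of 12 genes at 0, 24 and 48 h of TGFb1 (horizontal axis). Points are arrays, coloured lines join the arrays of 1 run, and black bars are group means. TAGLN rises in all 3 runs, and in run 3 it starts lowest at 4.48 and reaches 8.38, while MYLK starts highest in run 3 at 8.93 and ends lower.

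Of the myosin II genes, the regulatory light chain MYL9, the form of smooth muscle and of stress fibres, showed the largest difference. Its values were 7.17, 7.58 and 6.45 in untreated cells, 7.93, 8.30 and 8.15 at 24 h, and 7.93, 8.47 and 7.93 at 48 h. All treated arrays exceeded all untreated ones, and the widest spread was among the untreated arrays, with run 3 lowest. The log2 fold change was 1.06 (SE 0.28), 2.09-fold, at 24 h and 1.04, 2.06-fold, at 48 h. The limma adjusted p was 0.0663 and 0.0715, and with the block 0.00947 and 0.0108. Within runs the 24 h difference was 0.76, 0.72 and 1.70.

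MYL12A, a closely related regulatory light chain of non-muscle cells, ranged from 8.43 to 8.85 over the 9 arrays, and MYL6, the essential light chain, from 11.38 to 11.64. Neither passed the test, with differences from untreated cells of 0.01 and −0.02 for MYL12A and 0.14 and 0.10 for MYL6 at 24 h and 48 h. The 24 h direction of MYL12A turned under quantile normalization, with a difference of −0.02.

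The heavy chain MYH9 of non-muscle myosin IIA had values of 7.12, 7.33 and 7.44 in untreated cells, 7.56, 7.96 and 8.04 at 24 h, and 7.48, 7.65 and 7.66 at 48 h. Its treated arrays lay above the untreated ones at both times. The difference was 0.56 (SE 0.16) at 24 h (limma adjusted p = 0.0966, and 0.0128 with the block) and 0.30 at 48 h (0.492 and 0.136). The heavy chain MYH10 of myosin IIB had 8.20, 7.87 and 8.68, then 8.21, 7.57 and 8.08, then 8.52, 8.23 and 8.38, with overlap between untreated and treated arrays. It differed by −0.29 (SE 0.23) at 24 h and 0.13 at 48 h (limma adjusted p = 0.592 and 0.913), and a dimmer MYH10 set with an untreated mean of 3.90 differed by 0.06 and 0.33.

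MYLK, the calmodulin-dependent kinase that activates myosin, was the one tested gene of the 35 below untreated cells on all arrays at 24 h. Of all tested genes, 7.72% were so. Its values were 8.49, 8.01 and 8.93 in untreated cells, 7.87, 7.71 and 7.57 at 24 h, and 8.10, 7.91 and 8.04 at 48 h. The groups did not overlap at 24 h and overlapped at 48 h. The log2 fold change at 24 h was −0.76 (SE 0.21), a 1.69-fold lower level, with a limma adjusted p of 0.0908 and of 0.0358 with the block. At 48 h it was −0.46 (0.399, and 0.193 with the block). The size of the 24 h difference varied between runs, at −0.62, −0.30 and −1.36. Within each of the 3 runs MYL9, the substrate, was higher than in untreated cells and MYLK, its kinase, lower, at both times. Of all tested genes, 24.9% were higher in every run at 24 h and 23.2% at 48 h, and 19.8% and 18.2% were lower.

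α-Actinins cross-link antiparallel filaments and anchor them at focal adhesions. ACTN1 had values of 9.16, 9.33 and 9.51 in untreated cells, 9.69, 9.95 and 10.25 at 24 h, and 9.63, 9.74 and 9.91 at 48 h, with no overlap with the untreated group at either time. The order of the 3 runs was the same at each time. It differed by 0.63 (SE 0.17) at 24 h (limma adjusted p = 0.0854, and 0.00706 with the block) and by 0.42 at 48 h (0.298 and 0.0417). Its 3 tested probe sets differed by 0.63, 0.75 and 0.61 at 24 h, and the 2 dimmer ones had limma adjusted p of 0.0195 and 0.0368 in the fit over all probe sets.

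ACTN4, the other non-muscle α-actinin, ranged from 7.63 to 8.25 and differed by 0.23 (limma adjusted p = 0.532) at 24 h and 0.00 (0.997) at 48 h. FSCN1 (fascin, which packs filaments into the straight bundles of filopodia) had values of 5.37 to 5.79 in untreated cells, 5.56 to 6.32 at 24 h and 5.82 to 6.08 at 48 h. Its differences of 0.44 (0.337) and 0.38 (0.507) did not pass. A slightly dimmer FSCN1 set, with an untreated mean of 5.30, differed by only 0.15 and 0.20. LIMA1, a LIM protein that stabilises filaments, was the tested gene closest to the filter, reaching 4 on 4 arrays, while the other 24 reached it on all 9. The nearest gene outside the filter, ACTA2, reached 4 on 0 of 9 arrays and had a highest value of 2.88. LIMA1 differed by −0.09 at 24 h (limma adjusted p = 0.884), and at 48 h (0.538) its values were 3.35 to 4.04, against 3.80 to 4.12 in untreated cells.

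The cytoplasmic actin ACTB, often used as a reference, had values of 12.12, 12.26 and 12.33 in untreated cells, 12.26, 12.45 and 12.52 at 24 h, and 12.25, 12.33 and 12.34 at 48 h. It lay within 0.4 of the highest value of its array, and whether the signal is compressed there was not tested. Its differences were 0.17 (SE 0.13) and 0.07 (limma adjusted p = 0.560 and 0.912). The 8 probe sets that read ACTG1 or ACTB together were dimmer, with values of 10.45 to 11.59 in untreated cells, and differed by 0.16 to 0.30 at 24 h and 0.11 to 0.19 at 48 h. Their limma adjusted p was 0.431 to 0.611 at 24 h and 0.718 to 0.845 at 48 h, and neither actin can be singled out in them. ACTA2, the α-smooth muscle actin that marks myofibroblasts, had values of 2.48, 2.13 and 2.79 in untreated cells, 2.54, 2.54 and 2.88 at 24 h and 2.54, 2.35 and 2.76 at 48 h, near the median of an array. ACTG2, the enteric smooth muscle actin, did not exceed 2.07. No detection calls were used here, so these signals cannot be told from background.

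By their brightest probe sets, none of the 7 tested genes of filament turnover, monomer binding, capping and branching passed in either comparison. This held with and without the block in limma. Of all tested genes, 2.63% were higher and 2.17% lower at 24 h, and 2.27% and 2.17% at 48 h. With the block these shares were 5.95% and 5.52%, then 5.22% and 4.81%. At such shares, 0 of 7 does not set these genes apart. At an unadjusted limma p under 0.05, CAPZB alone of the 7 passed without the block, at both times (16.0% of all tested genes at 24 h and 13.9% at 48 h). CAPZB, a subunit of the protein that caps the growing filament end, had the largest difference of them, with values of 8.29, 8.43 and 8.20 in untreated cells, 8.54, 8.90 and 8.78 at 24 h, and 8.63, 8.59 and 8.62 at 48 h. Treated and untreated arrays did not overlap, and the difference was 0.43 at 24 h (limma adjusted p = 0.128, and 0.0515 with the block) and 0.31 at 48 h (0.348 and 0.165). The dimmer tested CAPZB sets differed by 0.39 and 0.49 at 24 h and by 0.21 and 0.27 at 48 h. In the fit over all probe sets their limma adjusted p at 24 h was 0.365 and 0.398. With the block it was 0.0634 and 0.0291, the latter past the threshold, and at 48 h 0.308 and 0.198. The profilins PFN1 and PFN2 feed monomers to growing ends. PFN1 differed by 0.24 (0.355) and 0.05, and PFN2 by 0.08 and 0.23 (0.564). The severing factors CFL1 (cofilin) and DSTN (destrin) differed by 0.13 and 0.13 at 24 h and by 0.11 and 0.30 at 48 h. ARPC2, a core subunit of the branching Arp2/3 complex, differed by 0.02 and 0.08, with its 24 h direction turned under quantile normalization (−0.03). TMSB10, a thymosin that binds monomers, ranged only from 12.25 to 12.39, close to the top of the scale, and differed by −0.03 and −0.01, the latter turning to 0.01 under quantile normalization.

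The other ways of counting were read against all genes in the same way. At 24 h, 10 of the 25 genes had all treated arrays above all untreated ones (8.68% of all tested genes) and 1, MYLK, had them below (7.72%). At 48 h, 13 were above (9.75%) and 0 below (8.31%). In every run 16 genes were higher at 24 h (24.9% of all genes) and 2, MYLK and TMSB10, were lower (19.8%). At 48 h, 17 were higher in every run (23.2%) and 2, LIMA1 and MYLK, lower (18.2%). Most of these genes did not pass the adjusted threshold of the fit without the block.

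**Figure D3:**
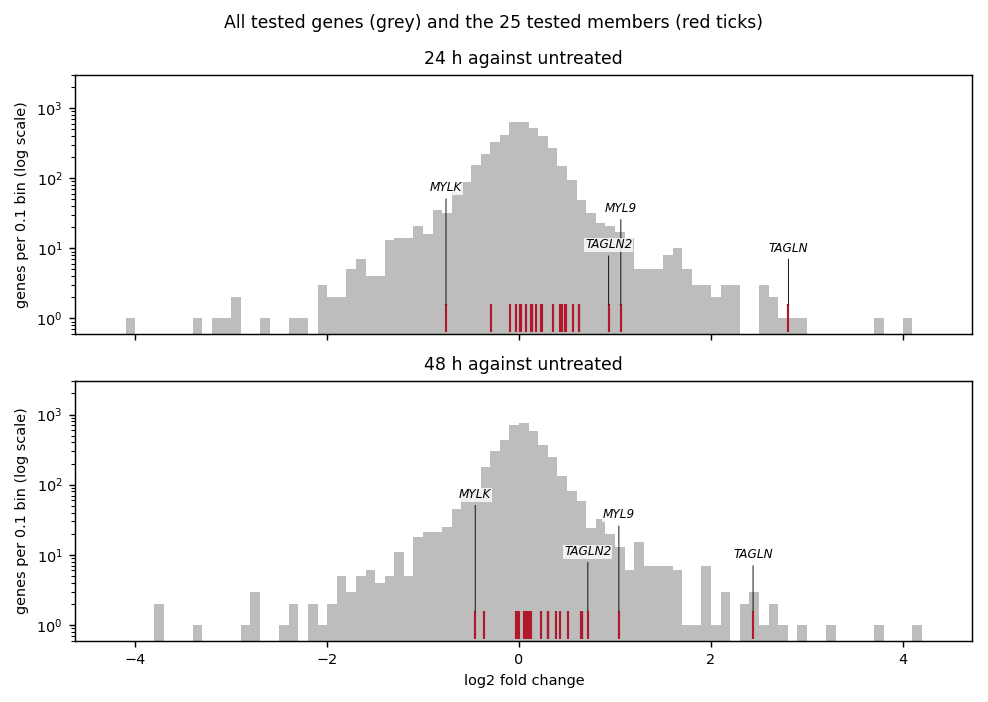
Number of tested genes (vertical axis, log scale) by log2 fold change (horizontal axis) at 24 h (top) and 48 h (bottom) against untreated cells. Grey bars are all 4368 tested genes and red ticks the 25 genes described here. TAGLN lies in the upper tail at both times, while most red ticks lie between 0 and 1.

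Between 24 h and 48 h no gene differed past the threshold. The count was 0 of 25 and 0 of 4368 (0% of all genes in either direction) in limma with and without the block. At an unadjusted p under 0.05, 0 of the 25 genes and 219 of all genes (5.01%) differed. With the block, the unadjusted count was 3 (CNN2, MYH9 and MYH10), where 16.2% of all genes were. TAGLN differed by −0.37 between 24 h and 48 h, with a 95% interval of −1.03 to 0.30, and was lower at 48 h in each run, by −0.24, −0.21 and −0.66. TPM1 differed by 0.08 (−0.19 to 0.34), TPM4 by 0.02 (−0.31 to 0.35) and MYL9 by −0.02 (−0.64 to 0.60). These intervals do not show equal levels at the 2 times. MYH10 differed by 0.42 (−0.10 to 0.94; limma adjusted p = 0.781, and 0.268 with the block) and its 48 h arrays all lay above its 24 h arrays, as did those of CNN3 and MYLK (6.34% of all genes). PFN1 alone had them all below (6.25%), at a difference of −0.19 (−0.45 to 0.07). ACTN1, MYH9, TAGLN and TAGLN2 were among the 10 genes lower at 48 h than at 24 h in every run (22.3% of all genes), and CNN3, MYLK and TPM1 among the 6 that were higher (21.1%).

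**Figure D4:**
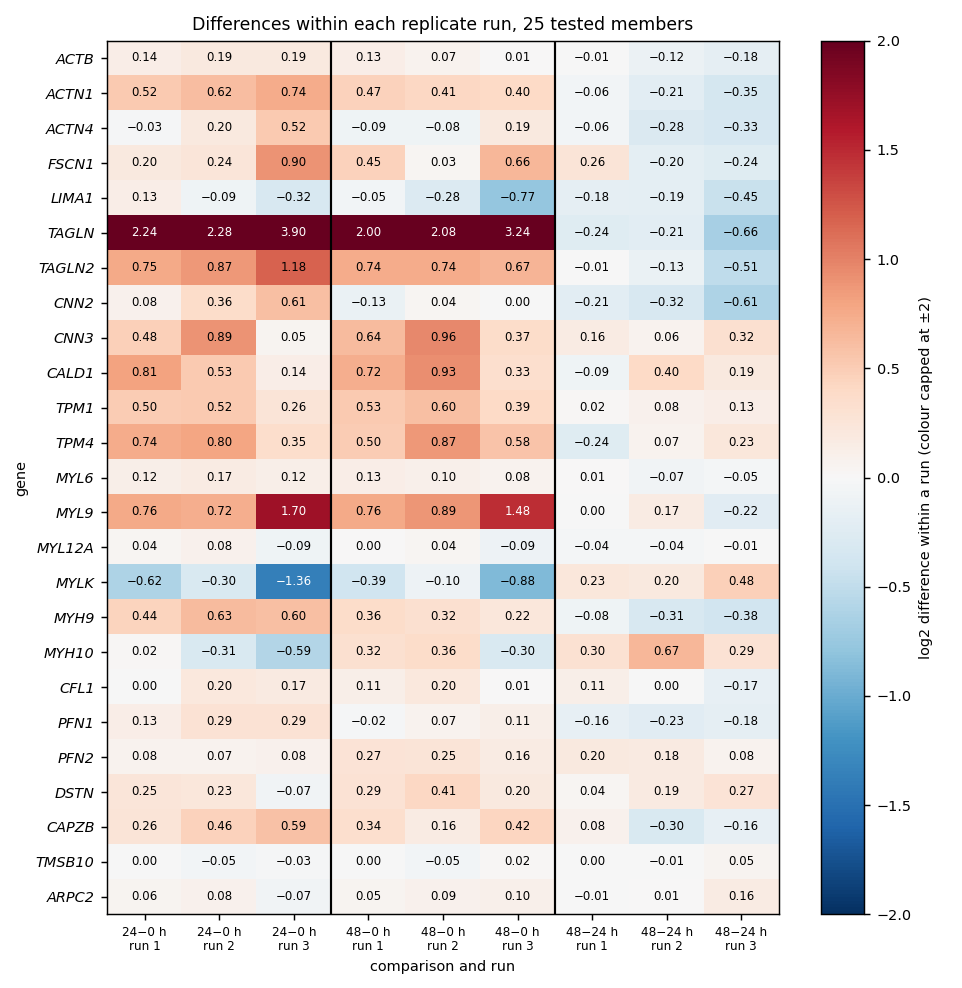
Log2 difference within each run (cell colour and number) for the 25 tested genes (vertical axis) in 3 comparisons of 3 runs each (horizontal axis), with the colour capped at 2. TAGLN has the deepest red in every run against untreated cells, MYLK is blue in all 6 differences from untreated cells, and the differences between 48 h and 24 h are paler.

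The untreated array of run 3 held the lowest or the highest untreated value for several of these genes. TAGLN and MYL9 were lowest there (4.48 and 6.45), and MYLK, MYH10, MYL12A, CALD1 and CNN3 were highest (8.93, 8.68, 8.85, 7.72 and 7.00). MYL12A was highest in run 3 at 24 h and 48 h as well. Of the 3 runs, run 3 had the 24 h difference of largest size for, among others, TAGLN (3.90), MYL9 (1.70) and MYLK (−1.36). It had the smallest for, among others, CNN3 (0.05), CALD1 (0.14), TPM1 (0.26) and TPM4 (0.35). Without untreated replicate 3, TAGLN differed by 2.51 at 24 h, still past the threshold (limma adjusted p = 0.00234). The cause of these differences between runs was not tested.

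Several of these genes were read by more than 1 probe set. Of 51 tested probe sets for 27 genes or gene pairs, 47 had a higher mean than in untreated cells at 24 h (52.7% of all 6681 sets) and 46 at 48 h (56.9%). In the fit over 6681 probe sets, 9 were higher past the threshold at 24 h (2.36% of all sets) and 8 at 48 h (2.16%), and 0 were lower (1.86% and 1.83%). They belonged to TAGLN, TAGLN2, TPM1, TPM4 and, at 24 h, ACTN1. Probe sets of 1 gene share its RNA and are not separate evidence. CALD1 was read by 3 tested sets, which differed by 0.49, 0.44 and 0.28 at 24 h and by 0.66, 0.91 and 0.64 at 48 h.

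**Figure D5:**
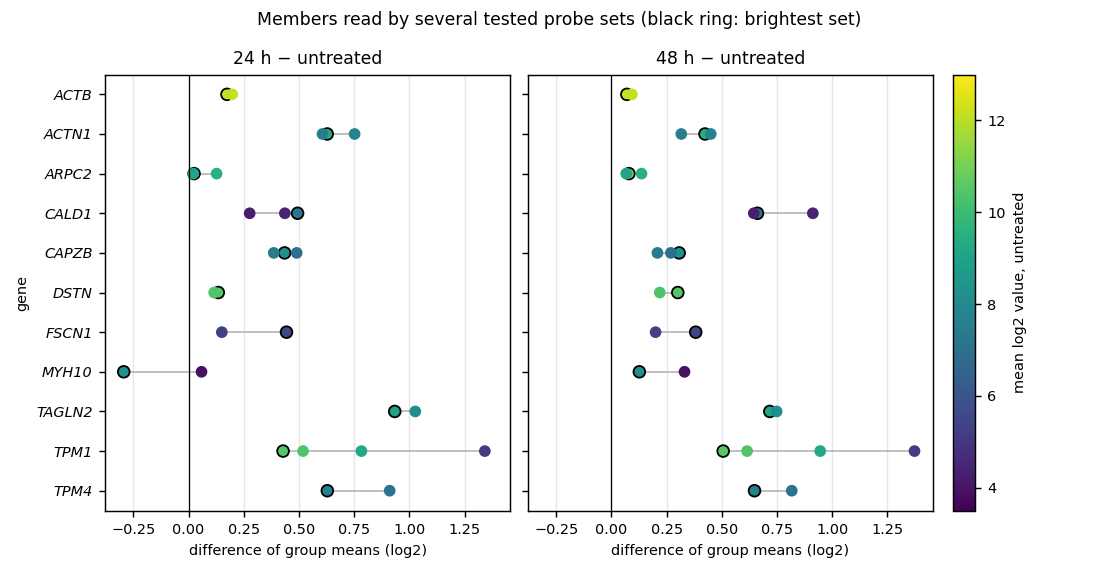
Difference of group means (horizontal axis, log2) for each tested probe set of genes with more than 1 (vertical axis) at 24 h (left) and 48 h (right). Each point is a probe set, its colour gives the untreated mean and the black ring marks the brightest set. The TPM1 sets spread from 0.43 to 1.34 at 24 h, with the dimmest set farthest to the right.

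A further 81 genes of the actin pathway were set beside these, in 7 lists. Of the 81, 71 were on the array and 50 were tested. At 24 h, 2 rose and 0 fell, and at 48 h again 2 rose and 0 fell (limma), against the 2.63% and 2.17% of all genes at 24 h and the 2.27% and 2.17% at 48 h. The 2 were SVIL and PALLD at both times. SVIL (supervillin, a membrane-linked protein of the gelsolin family) had group means of 4.35, 5.31 and 5.80 at 0, 24 and 48 h, with differences of 0.97 (adjusted p = 0.0475) and 1.46 (0.00713). PALLD (palladin, a scaffold that binds α-actinin) had group means of 6.97, 7.68 and 7.93, with differences of 0.71 (0.0296) and 0.96 (0.00709). With the block, 7 of the 50 rose at 24 h (SVIL, PALLD, MARCKS, DBN1, VASP, ARHGDIA and SRF, against 5.95% of all genes) and 1 fell (against 5.52%). At 48 h with the block, 3 rose (SVIL, PALLD and MARCKS, against 5.22%) and 4 fell (against 4.81%). The gene that fell at 24 h was CAPG, a capping protein (−0.42, adjusted p = 0.0479 with the block), and those at 48 h were CAPG, CTTN, RHOB and CDC42EP3. SRF itself differed by 0.51 at 24 h (limma adjusted p = 0.306, and 0.0490 with the block). None of the 6 tested Arp2/3 subunits other than ARPC2 passed in either fit, nor did any of the 3 tested further myosins. As at most 5.95% of all genes passed in a direction, counts of 0 among 6 or 3 do not set these groups apart.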

How the data were processed

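RNA of 9 HK-2 cultures was measured on 1-colour Affymetrix arrays, 3 per group. The authors deposited log2 values, 1 for each probe set. Per the submitters' processing notes they come from GCRMA, a method that subtracts a background modelled on probe sequence, equalises the arrays and combines the probes of a set; no version is recorded there. The base of the log was read from the range of the values. They were used with no further normalization.

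The table held 22277 probe sets, 62 of them controls. The platform annotation gave 19070 sets 1 symbol, 1043 several and 2164 none, and 19058 sets took their current symbol from the RefSeq table by gene ID. Each gene was represented by its brightest set (mean of 9 arrays), and tested where 3 or more arrays reached a log2 value of 4. Differences were fitted on all 9 arrays by lmFit and eBayes of limma 3.58.1, run in R 4.3.3, adjusted by Benjamini-Hochberg over 4368 genes at a threshold of 0.05. Every adjusted p comes from limma. A gene has 1 SE for all comparisons. Folds are 2 to the power of the log2 difference. The fit without the block was tried on simulated data for the 24 h comparison. The simulated arrays were independent and so lacked the shift that arrays of 1 run share. The block, the other comparisons and the promoter search were not tried in this way. The number of arrays limits the precision.

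All 35 genes are named whatever their values, and up to 4 genes of each other list past the threshold. The genes and lists were chosen with earlier results of these data known. Run numbers were taken as pairing the arrays because deviations from the group means correlated at 0.378 to 0.662 between arrays of 1 number (9 pairs) and at −0.526 to 0.185 between numbers (18 pairs), and the labels place the runs on different days. The median SE over all tested genes was 0.191, and 0.139 with the replicate block. The alternatives tried were the block, other filters, quantile normalization, centring, an intensity trend, the 6 arrays compared alone, the mean of probe sets, each array or run left out, and every probe set, the last added after seeing the data.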

Additional observations from a re-analysis of the deposited data

How the results depend on the processing

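Of the 25 tested genes, 3 were past the threshold at 24 h and 4 at 48 h. With the replicate block, which compares arrays within a run, the counts were 8 and 8, and the genes gained with this pairing by run are named beside their results. With an intensity trend in the spread the 24 h count was 6, with the mean of the probe sets of each gene 5, and with only the 6 arrays compared 1 at 24 h and 2 at 48 h. Leaving out 1 array gave 1 to 4 at 24 h and 1 to 5 at 48 h, and leaving out a run gave 1 at 24 h and 0 to 1 at 48 h. A count of 1 was TAGLN in each case. At 24 h it came without untreated replicate 1, 24 h replicate 2, 24 h replicate 3 or any run. At 48 h it came without untreated replicate 1, 48 h replicate 1, 24 h replicate 2, 48 h replicate 2, 48 h replicate 3, run 2 or run 3. At 48 h a count of 2 came without untreated replicate 2 (MYL9 and TAGLN) or 24 h replicate 3 (TAGLN and TAGLN2), and a count of 0 without run 1. The other alternatives kept each count within 1.5 times. TAGLN passed at 24 h in all 20 alternatives and at 48 h in 19 of 20. The count between 48 h and 24 h was 0 in every alternative run.

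Some differences changed sign, none of them past the threshold in either setting. Under quantile normalization these were MYL12A (−0.0233) and ARPC2 (−0.0263) at 24 h, and ACTN4 (−0.0176) and TMSB10 (0.0138) at 48 h. With the mean of probe sets, TPM4 between 48 h and 24 h came to −0.0374. Leaving out arrays or runs gave ranges across 0 at 24 h for ARPC2 (−0.0246 to 0.0705), LIMA1 (−0.24 to 0.0206), MYL12A (−0.0736 to 0.14) and PFN2 (−6e-04 to 0.16). At 48 h they did so for ACTN4 (−0.0879 to 0.10), CNN2 (−0.14 to 0.10), MYH10 (−0.0608 to 0.34), MYL12A (−0.11 to 0.11) and TMSB10 (−0.0498 to 0.0176). Between 48 h and 24 h they did so for MYL9 (−0.20 to 0.0816) and TPM4 (−0.0846 to 0.15). The cause of these changes was not tested. Values near an array's median cannot be told from background, which limits ACTA2, ACTG2, CNN1 and TPM2.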
